A study of Homo sapiens with 11 samples.

Results

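The 10 genes described here are core members of the human pluripotency network: POU5F1, which encodes Oct4, SOX2, KLF4, NANOG, LIN28A, LIN28B, SALL4, UTF1, ZFP42 and DPPA4. They were chosen by symbol from the 60605 features of the deposited table, and every one of the 10 was listed there. POU5F1, SOX2 and KLF4 are the human genes of the factors delivered to the cells, and the other 7 were not delivered. Polyadenylated RNA had been sequenced from ARPE-19 cells. ARPE-19 is an established cell line of the human retinal pigment epithelium (RPE), the pigmented layer behind the photoreceptors. All groups were stable ARPE-19 lines sampled after 4 days of expression of an open reading frame (ORF). The ORF was that of GFP, a fluorescent protein used as the control (3 libraries), of Oct4 (2), of Sox2 (2), of Klf4 (2), or of all of Oct4, Sox2 and Klf4 (the OSK line, 2). The library names of all factor lines also hold mC, which those of the GFP libraries lack. In comparisons with GFP, any difference that mC marks cannot be told apart from that of the factors. The labels do not say how the ORFs were driven, from which species they were taken, or whether replicates came from separate cultures, so p-values measure only the spread between these libraries, which may be technical.

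In pluripotent stem cells, Oct4 and Sox2 bind DNA side by side at a composite motif and keep their own genes and NANOG transcribed, and Klf4 joins them at many of the same sites. Forced expression of such factors can reprogramme differentiated cells over weeks, and the endogenous network, NANOG, LIN28A, UTF1, ZFP42 and DPPA4 among it, is normally activated late in that process. These genes are largely silenced in differentiated epithelia, which makes them markers of whether a cell has moved toward pluripotency. The question asked was whether any of them was switched on after 4 days.

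The promoters of NANOG and SOX2 are shown because they hold the letters that the delivered factors are known to bind. They are the 250 bases before the start of each gene in RefSeq (GRCh38.p14, plus strand in both cases), NANOG at chr12:7789152-7789401 and SOX2 at chr3:181711675-181711924. Capitals mark matches to the octamer core bound by Oct4 (ATGCAAA, the octamer without its last base) and the core bound by SOX proteins (CATTGT). They also mark the SOX core followed directly or after 1 base by the octamer core (the composite, which contains both single motifs). KLF motifs (GGGTGTG or GGGCGTG) are marked as well, and all were searched on both strands.
NANOG: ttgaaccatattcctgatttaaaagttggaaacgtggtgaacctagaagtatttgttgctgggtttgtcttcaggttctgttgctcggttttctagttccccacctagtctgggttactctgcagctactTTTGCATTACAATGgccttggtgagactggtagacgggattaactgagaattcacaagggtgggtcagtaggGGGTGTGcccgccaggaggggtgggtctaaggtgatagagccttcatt
SOX2: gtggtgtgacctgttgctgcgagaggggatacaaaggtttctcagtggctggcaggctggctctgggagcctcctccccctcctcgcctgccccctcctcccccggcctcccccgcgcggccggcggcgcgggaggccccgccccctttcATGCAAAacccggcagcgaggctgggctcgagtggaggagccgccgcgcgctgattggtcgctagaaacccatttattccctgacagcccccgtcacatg
NANOG holds the composite on the reverse strand, from position -120 to -107 relative to the gene's start, and a KLF motif from -48 to -42. SOX2 holds the octamer core from -100 to -94. Of 35116 RefSeq promoters searched over the same length, 3.94% held the octamer core, 9.29% the SOX core and 14.0% a KLF motif. The composite was in 2, NANOG and NRARP. Promoters were matched for 7 of the 10 genes. Among those 7, the octamer core was in 2, the SOX core in 2 and a KLF motif in 3. The windows of KLF4, UTF1 and DPPA4 held none of these letters. A match describes the sequence only, as factor binding was not measured.

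Depth was similar across libraries, from 15053300 reads in Sox2 replicate 1 to 19791775 in Sox2 replicate 2, but 2 libraries stood apart in background. In 9 libraries 25853 to 26971 features had at least 1 read, whereas GFP replicate 1 reached 42956 and OSK replicate 1 reached 32493. Olfactory receptor genes, which an epithelial line should lack, served as a measure of that background. Of 405 such genes, GFP replicate 1 had 27.2% at over 3 reads, OSK replicate 1 had 2.96%, and the rest had 1.23% to 2.47%. Their 95th percentile was 10 reads in GFP replicate 1, 3 in OSK replicate 1 and at most 1 in the other 9 libraries. Some of the results that rest on either of these libraries are given below with and without them. Expression is given on the normalised count scale, which is what the authors deposited: reads over a library-specific factor. Checked against RPE markers, the GFP libraries contained MITF at 3263 to 3603 normalised counts, PMEL at 4094 to 6067, TYRP1 at 2168 to 2813 and KRT8 at 15568 to 16617. RPE65, the isomerase of the visual cycle, did not exceed 4 reads in any library, TTR 5 or DCT 10, so those 3 RPE markers were near or within background in this line. MITF, PMEL and TYRP1 were lower in every factor line, and their values stand beside the undelivered genes below.

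The genes of the delivered factors matched the labels in all 11 libraries. POU5F1 (chr6:31164337-31170682, minus strand, RefSeq, GRCh38.p14 as for all genes below) had 276, 252 and 262 in the 3 GFP libraries, 67326 and 66823 in the Oct4 line, and 19020 and 19542 in the OSK line. SOX2 (chr3:181711925-181714436, plus strand), a gene of the SRY-box family, had 82.4, 59.7 and 43.7 in GFP, 29106 and 29141 in the Sox2 line, and 17764 and 17582 in the OSK line. KLF4 (chr9:107484852-107489769, minus strand), which encodes a zinc-finger factor also used by normal epithelia, had 124, 45.5 and 46.7 in GFP, 24205 and 22142 in the Klf4 line, and 24470 and 24202 in the OSK line. Each was thus far above GFP in the lines that received it, with no overlap. None was absent from GFP, where all 3 genes had at least 45 reads in every library. The deposited values do not separate ORF reads from endogenous ones.

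**Figure D1:**
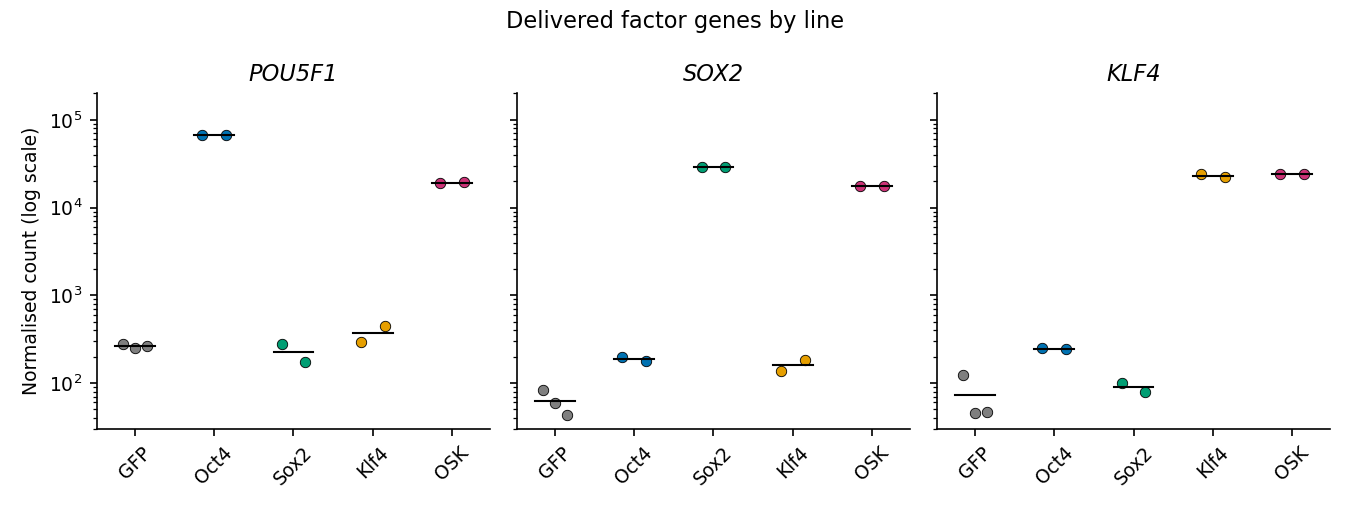
Normalised counts (log axis) of POU5F1, SOX2 and KLF4 in each library (points) of the 5 lines, with the group mean (line). Each gene is highest in the lines that received it, while SOX2 is also above GFP in the Oct4 and Klf4 lines and KLF4 in the Oct4 line.

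Within the OSK line the 3 factor genes were close to equal per length of coding sequence, whereas the single-factor lines differed several-fold. Because an ORF covers only the coding part of a gene, levels were compared between genes as normalised counts per kilobase of coding sequence, using the longest coding sequence of each gene (1080 bases for POU5F1, 951 for SOX2 and 1437 for KLF4). In the OSK line they were 17853 for POU5F1, 18583 for SOX2 and 16935 for KLF4, so that the highest was 1.10 times the lowest, and the same ratio held in each of its 2 libraries. In the single-factor lines they were 62106, 30624 and 16126, a ratio of 3.85. The OSK line had 28.7% of the Oct4 line's POU5F1 normalised counts, 60.7% of the Sox2 line's SOX2 and 105% of the Klf4 line's KLF4. The decrease from the single line was called for POU5F1 (log2 change -1.80, SE 0.18, limma adjusted p = 7.92e-07) and SOX2 (-0.72, SE 0.20, limma adjusted p = 0.0080). For KLF4 the 2 lines could not be told apart, with a fold of 1.05 and a 95% interval from 0.66 to 1.67. In the OSK line the cells that carry each ORF and the level per cell cannot be told apart in bulk RNA. The comparison between genes used human coding lengths and reads counted on human genes, while the species of the ORFs is not given. How that bears on the ratios between genes was not tested.

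**Figure D2:**
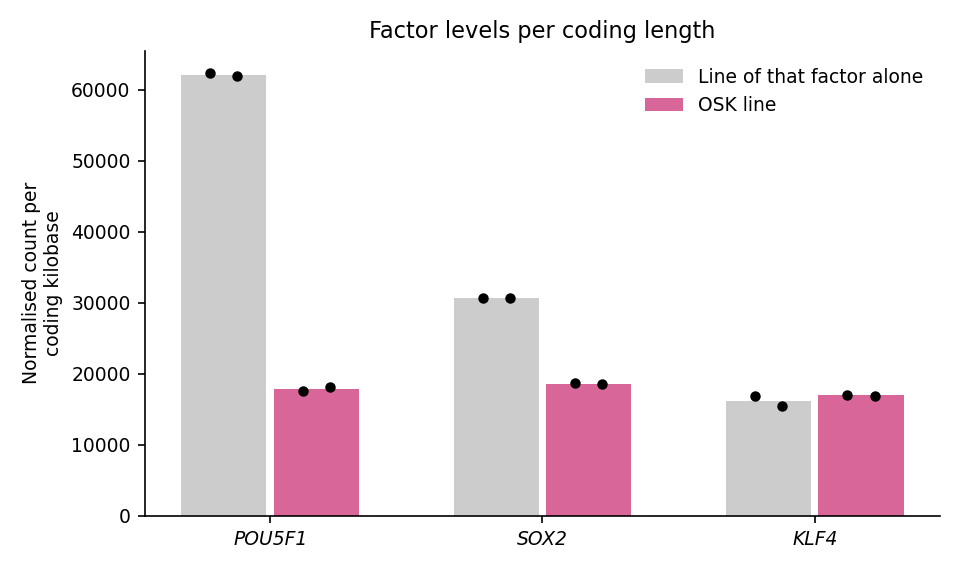
Normalised counts per kilobase of coding sequence for each factor gene in the line of that factor alone (grey) and in the OSK line (pink). Bars are means of 2 libraries, shown as points, and the OSK bars lie between 16935 and 18583 while the single-line bars run from 16126 to 62106.

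Factor genes also differed in lines to which they had not been delivered. SOX2 had 197 and 179 normalised counts in the Oct4 line and 136 and 184 in the Klf4 line, all above the highest GFP library. It rose 3.10-fold in the Oct4 line (95% interval 2.37 to 4.04, log2 change 1.63, SE 0.18, limma adjusted p = 2.6e-06) and 2.62-fold in the Klf4 line (2.01 to 3.41, log2 change 1.39, SE 0.18, limma adjusted p = 1.82e-05), and both calls were kept in every alternative run. These levels were 0.645% and 0.550% of the SOX2 level in the Sox2 line, and GFP had 0.213%. KLF4 had 248 and 242 in the Oct4 line, above every GFP library, and rose 3.77-fold (2.48 to 5.74, log2 change 1.92, SE 0.29, limma adjusted p = 6.12e-05). In the Sox2 line KLF4 had 101 and 78.8, within the GFP range (log2 change 0.47, SE 0.29, limma adjusted p = 0.212). That result rested on GFP replicate 1, without which KLF4 was called higher (0.94, limma adjusted p = 3.2e-07).

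POU5F1 stayed closer to GFP where it was not delivered. It had 293 and 446 in the Klf4 line and passed the threshold narrowly there (log2 change 0.45, SE 0.17, limma adjusted p = 0.0449). Without Klf4 replicate 2 the change was 0.15 (limma adjusted p = 0.58), and the call was also lost with DESeq2 (adjusted p = 0.12) and with only the 2 compared groups fitted (limma adjusted p = 0.075). In the Sox2 line it had 282 and 174, which lie on either side of the GFP range, and did not pass (-0.25, SE 0.17, limma adjusted p = 0.251). Without Sox2 replicate 1 it did, as lower (-0.60, limma adjusted p = 0.0090). These 3 genes were already detected in GFP, so none of them met the definition of a gene switched on that is given below.

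The calls are read against a high background of change. Over 18828 genes tested with limma, the share that changed from GFP was 37.3% for Oct4, 41.6% for Sox2, 33.5% for Klf4 and 39.7% for OSK. Of the 10 genes 9 passed the filter on low values and UTF1 did not. Oct4 gave 3 calls among the 9 and Klf4 gave 3, every one of them a factor gene that was higher. Sox2 gave 4 calls, 1 up and 3 down, and OSK gave 4, 3 up and 1 down.

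Of the 7 network genes that were not delivered, 6 were tested, and none of those was called higher than GFP in any line. A gene counted as switched on if it had at most 3 reads in each GFP library, or lay within the olfactory receptor background there, and was called higher with at least 1 CPM (counts scaled to a common library total) in each library of a line. No gene met the first condition, because all 7 were detected in at least 1 GFP library above that limit. No rise in a factor line could therefore have met the definition, and the calls against GFP are what bears on the question. None of the 6 that were tested was called higher against GFP, and UTF1 was not tested. Over the 24 tests of the 6 genes that passed the filter in the 4 lines, limma called 0 higher and 4 lower, and at an unadjusted p under 0.05 the counts were 0 and 6. edgeR on recovered reads gave 0 higher and 4 lower (0 and 5 unadjusted), and DESeq2 0 and 4 (0 and 4 unadjusted). The shares of all genes called higher were 20.1%, 21.7%, 17.6% and 19.7% in the Oct4, Sox2, Klf4 and OSK lines. Those called lower were 17.2%, 19.9%, 16.0% and 20.0%. Between the OSK line and each single-factor line, limma called none of the same 6 genes in either direction, where 40.3%, 40.5% and 21.5% of all genes were called against the Oct4, Sox2 and Klf4 lines (18.4%, 20.0% and 9.56% higher, 21.9%, 20.5% and 11.9% lower). edgeR and DESeq2 also gave 0, and at an unadjusted p under 0.05 limma gave 1 higher, NANOG against the Sox2 line. Without OSK replicate 1 or Sox2 replicate 1, 2 of the 6 were called higher in the OSK line than in the Sox2 line, and 1 without GFP replicate 1. Against GFP, the median log2 change of the 6 was -0.44, -0.98, -0.35 and -0.59 in the same order, beside -0.02, -0.02, -0.02 and -0.01 over all genes tested. All 4 comparisons share the 3 GFP libraries. These medians and the counts of calls against GFP include GFP replicate 1 with its high background. SALL4, for example, moved nearer to no change without it, as given below.

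Several RPE markers were lower in the same lines. PMEL, a protein of the pigment granule, had a mean of 5147 normalised counts in GFP and fell to 612 with Oct4, 140 with Sox2, 1270 with Klf4 and 809 with OSK. MITF, a transcription factor of pigment cells, fell from 3406 to 1893, 769, 2429 and 1661 in the same order. TYRP1, an enzyme of pigment synthesis, fell from 2491 to 274, 134, 1630 and 816. Of the 14 RPE markers in the list, 11 were tested, and limma called 9, 6, 4 and 10 of them lower and 0, 0, 1 (OTX2) and 0 higher. Of all genes tested, 17.2%, 19.9%, 16.0% and 20.0% were called lower and 20.1%, 21.7%, 17.6% and 19.7% higher. Summed over the 14, the normalised counts were 33489 to 37190 in the GFP libraries, against 18376 and 18856 in the Oct4 libraries, 21438 and 22127 with Sox2, 28783 and 25726 with Klf4, and 15845 and 16145 with OSK. By mean in GFP, the keratin genes KRT8 (15930) and KRT18 (5307) were the largest parts of that sum. The sum was lowest in the OSK line, whereas PMEL, MITF and TYRP1 were lowest in the Sox2 line. The part of the RPE markers in the changes of the pluripotency genes was not tested.

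**Figure D3:**
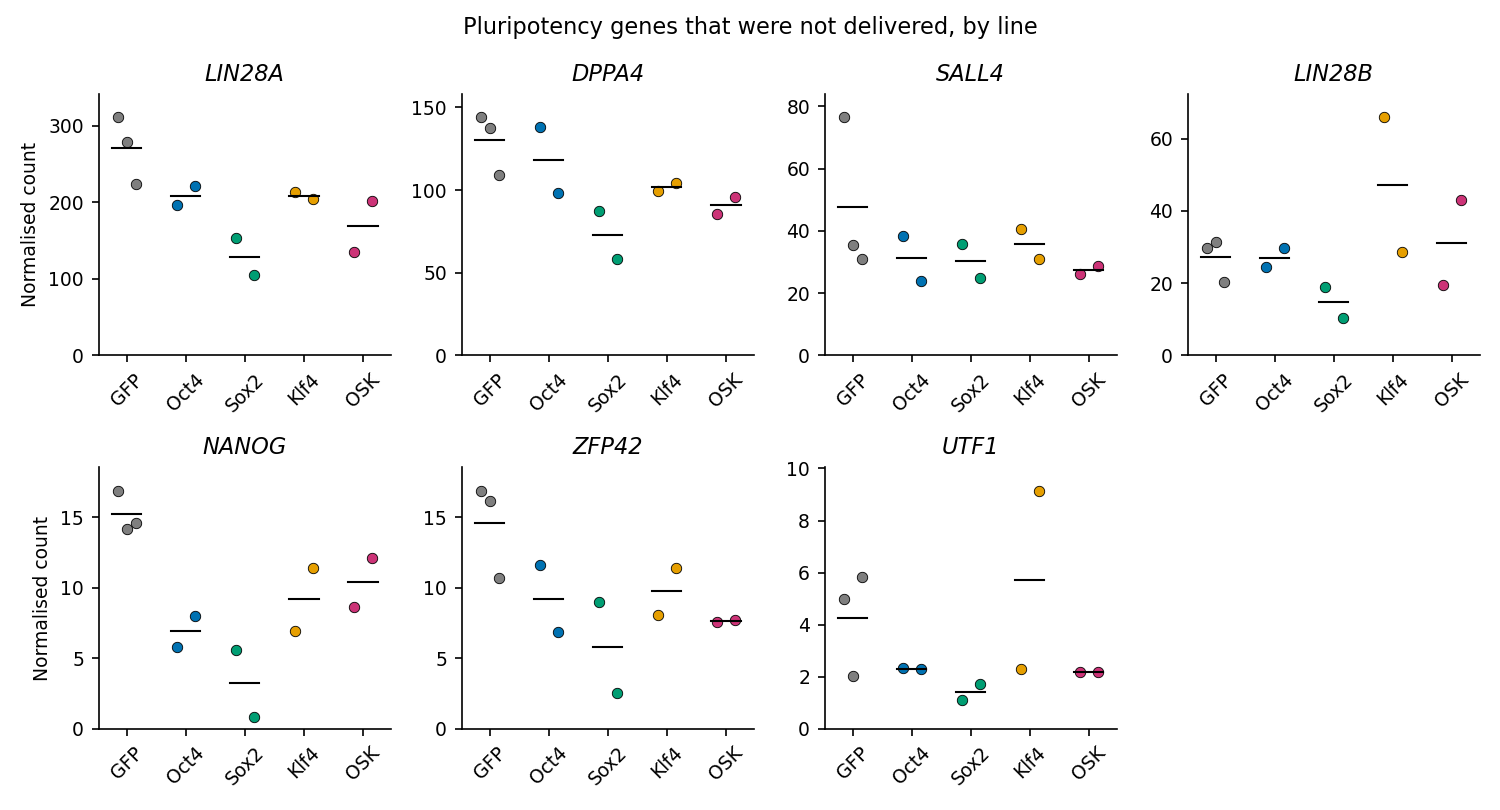
Normalised counts (linear axes from 0, a scale per gene) of the 7 genes that were not delivered, by library (points) with the group mean (line). In no line are both libraries of a gene above the GFP range, and single libraries exceed it for LIN28B (Klf4 replicate 1 and OSK replicate 2) and UTF1 (Klf4 replicate 2).

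NANOG (chr12:7789402-7799146, plus strand) encodes the homeodomain factor that locks in the pluripotent state. It had 16.9, 14.2 and 14.6 normalised counts in GFP, from 14 to 17 reads, against 5.81 and 8.01 in the Oct4 line and 5.61 and 0.86 in the Sox2 line. The Klf4 line had 6.94 and 11.4 and the OSK line 8.67 and 12.1. Every library of the 4 factor lines lay below every GFP library. The decrease was called in the Sox2 line (log2 change -2.20, SE 0.60, limma adjusted p = 0.00785), where it rested on replicate 2 with its single read, and was -1.29 in replicate 1 alone (limma adjusted p = 0.16). In the other lines the changes were -1.05 (limma adjusted p = 0.198), -0.70 (0.412) and -0.52 (0.544). The upper 95% limit of the fold over GFP was 1.18 in the Oct4 line, 1.5 in the Klf4 line and 1.70 in the OSK line, and rises beyond those sizes lay outside the intervals. The promoter printed above, with the composite motif, is that of this gene. Its copy NANOGP8 had 8.10 and 5.71 in the Klf4 line, 5.96, 2.02 and 1.94 in GFP, and at most 3.42 in the other lines. How reads shared by NANOG and NANOGP8 were counted is not given in the sources used here. The separation of NANOG from GFP in the Klf4 line is therefore uncertain. Against the Sox2 line, NANOG in the OSK line was higher by 1.68 on the log2 scale without passing (limma adjusted p = 0.0546), and it passed without GFP replicate 1 (0.036) and without Sox2 replicate 1 (2.60, limma adjusted p = 0.014).

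LIN28A and LIN28B encode RNA-binding proteins that block maturation of let-7 microRNAs. LIN28A (chr1:26410817-26429728, plus strand) had 311, 279 and 224 normalised counts in GFP, the highest level per exon length among the undelivered members. It had 196 and 221 in the Oct4 line, 154 and 104 in the Sox2 line, 213 and 205 in the Klf4 line and 136 and 201 in the OSK line. Every factor-line library was below the GFP range. LIN28A fell in the Sox2 line to 0.47 of its GFP level (95% interval 0.36 to 0.63, log2 change -1.08, SE 0.19, limma adjusted p = 2.55e-04), which every alternative kept. In the OSK line it fell to 0.62 (0.46 to 0.82, log2 change -0.70, SE 0.19, limma adjusted p = 0.00816). That call rested on OSK replicate 1, and OSK replicate 2 alone gave -0.42 (limma adjusted p = 0.18), which became -0.31 with GFP replicate 1 also left out (0.31). The changes in the Oct4 and Klf4 lines, -0.37 and -0.36, did not pass (limma adjusted p = 0.152 and 0.165).

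LIN28B (chr6:104937026-105083332, plus strand) scattered between replicates. GFP had 29.8, 31.4 and 20.4. The libraries read 24.4 and 29.8 for Oct4, 19.1 and 10.3 for Sox2, 65.9 and 28.6 for Klf4, and 19.5 and 42.9 for OSK. Only Klf4 replicate 1 and OSK replicate 2 were above the GFP range, each with a partner inside or below it. Its change in the Klf4 line was 0.68 (SE 0.44, limma adjusted p = 0.259), with a fold interval from 0.84 to 3.05, so a rise of up to that size lay within the interval. In the Oct4, Sox2 and OSK lines the changes were 0.01, -0.88 and 0.11 (limma adjusted p = 0.989, 0.122 and 0.871). LIN28B shares 67 exon bases (1.12%) with LIN28B-AS1 on the opposite strand, and strand use in counting is not given in the sources used here.

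SALL4 (chr20:51782331-51802521, minus strand), a zinc-finger partner of Oct4, had 76.5, 35.4 and 31.1 normalised counts in GFP. In the factor lines it ranged from 24.0 (Oct4 replicate 2) to 40.5 (Klf4 replicate 1), and the high GFP value was again that of replicate 1. No change passed, with log2 changes of -0.52, -0.54, -0.31 and -0.67 in the Oct4, Sox2, Klf4 and OSK lines (limma adjusted p from 0.183 to 0.583). The upper limits of the fold were 1.22, 1.2, 1.41 and 1.10. Leaving out GFP replicate 1 moved the SALL4 changes to -0.12, -0.15, 0.088 and -0.27, and none passed.

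DPPA4 (chr3:109326144-109339636, minus strand), a chromatin-associated protein of early embryos and stem cells, had 144, 138 and 109 in GFP. It had 138 and 98.4 in the Oct4 line, 87.5 and 58.2 in the Sox2 line, 99.5 and 104 in the Klf4 line and 85.6 and 95.7 in the OSK line. The Sox2, Klf4 and OSK libraries were all below the GFP range, and the Oct4 libraries overlapped it. DPPA4 fell in the Sox2 line (log2 change -0.85, SE 0.21, limma adjusted p = 0.00389), a call lost without Sox2 replicate 2 (-0.56, limma adjusted p = 0.093). In the OSK line it just missed (-0.51, SE 0.21, limma adjusted p = 0.0668) and passed without GFP replicate 3 (-0.63, limma adjusted p = 0.042). In the Oct4 and Klf4 lines the changes were -0.15 and -0.34 (limma adjusted p = 0.628 and 0.237).

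ZFP42 (chr4:187995771-188005246, plus strand), the gene of the stem-cell zinc-finger protein Rex1, was near the lower end of detection. GFP had 16.9, 16.2 and 10.7, the Oct4 line 11.6 and 6.87, the Sox2 line 8.98 and 2.57, the Klf4 line 8.10 and 11.4, and the OSK line 7.59 and 7.70. Only the Sox2 and OSK libraries lay wholly below the GFP range. No change passed: the log2 changes were -0.62, -1.36, -0.53 and -0.83 (limma adjusted p = 0.428, 0.0676, 0.523 and 0.279). In the Sox2 line the fold interval ended at 0.90, and the call passed without Sox2 replicate 1 (-2.10, limma adjusted p = 0.030).

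UTF1 (chr10:133230217-133231558, plus strand), a chromatin factor tightly restricted to pluripotent cells, was the only member that was silent in any line. By the limit of 3 reads in each library it was silent in the Oct4 line (2 and 2 reads), the Sox2 line (1 and 2) and the OSK line (2 and 2). Set by the olfactory receptor percentile of each library instead, UTF1 was silent in none of the groups. In Sox2 replicate 2 taken alone, NANOG with 1 read and ZFP42 with 3 were within the limit as well. A limit of 3 reads corresponds to at most 0.193, 0.199 and 0.193 CPM in these lines, counting error only. GFP had 5, 2 and 6 reads and the Klf4 line 2 and 8. In normalised counts GFP had 4.27 ± 2.00 (SD, n = 3), which with the 3-read limit per library gives the Oct4, Sox2 and OSK lines as at least 1.23-fold, 1.27-fold and 1.30-fold lower. With GFP itself so near the limit, a difference of UTF1 between lines was not detectable at this depth. Its highest value, 9.14 normalised counts in Klf4 replicate 2, had no counterpart in Klf4 replicate 1, with 2.31. UTF1 was not tested, since it did not reach a value of 10 in 2 libraries.

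**Figure D4:**
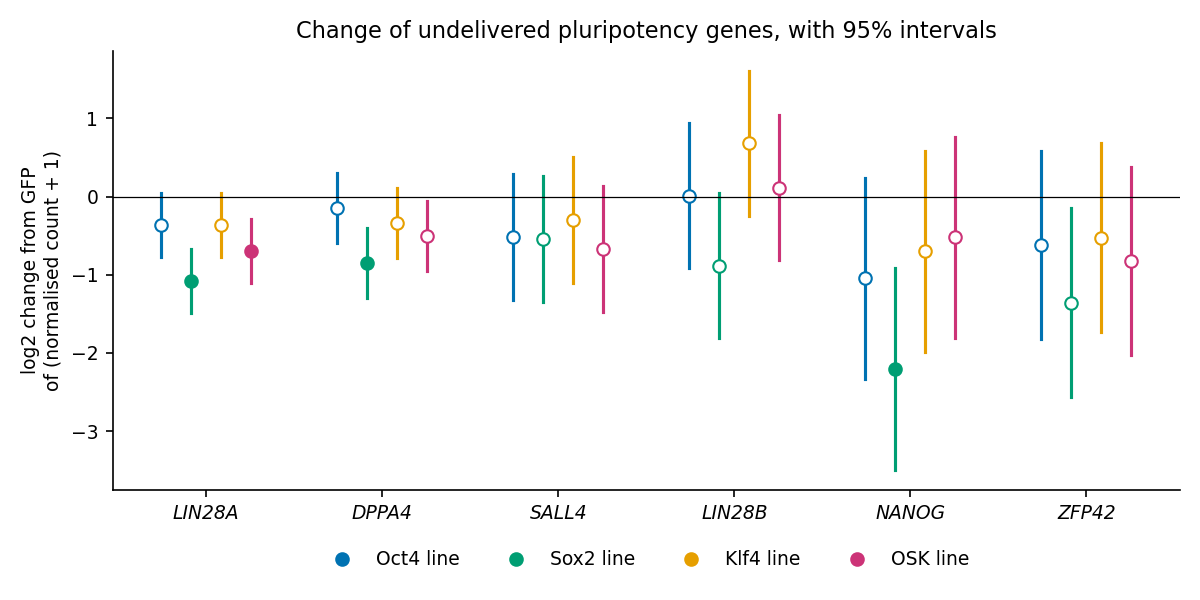
Change from GFP, in log2 of (normalised count + 1), of the 6 undelivered genes that were tested, with 95% intervals from limma. Filled points passed an adjusted p of 0.05 and open points did not. The 4 filled points all lie below 0, and the interval that reaches highest above 0 is that of LIN28B in the Klf4 line.

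Compared per kilobase of exon, the network genes were low in GFP and in a clear order only at the top. In RPKM (reads scaled by exon length, from GENCODE release 29, and by library total), POU5F1 had 5.32 ± 0.49 (SD, n = 3), LIN28A 3.96 ± 0.81, DPPA4 1.52 ± 0.27, SOX2 1.45 ± 0.52, KLF4 1.17 ± 0.79 and SALL4 0.490 ± 0.283. ZFP42 followed with 0.322, LIN28B with 0.265, UTF1 with 0.217 and NANOG with 0.165. The libraries of POU5F1 and LIN28A did not overlap, nor did those of LIN28A and DPPA4, while every later pair of neighbours overlapped. POU5F1 is uncertain at this level because near-identical copies exist and the counting of shared reads is not given in the sources used here.

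Reads on POU5F1P3, POU5F1B and POU5F1P4 were highest in the lines that received Oct4. The pseudogene POU5F1P3 had 598 ± 20.8 normalised counts in the Oct4 line and 186 ± 11.2 in the OSK line (SD, n = 2), against 6.62 in GFP, which is 0.892% and 0.965% of POU5F1 in the 2 factor lines. POU5F1B had 537 and 151 (0.801% and 0.782% of POU5F1), with 39.7 in GFP, 26.0 in the Sox2 line and 16.7 in the Klf4 line. POU5F1P4 had 301 and 92.7 (0.449% and 0.481%). Outside GFP replicate 1 and OSK replicate 1, the copies with over 10 reads in any library were these 3 and POU5F1P6. Of 27 copy or overlapping rows, 15 had over 3 reads in some library and 8 did so outside those 2 libraries. SOX2-OT, the transcript that spans SOX2, had 4.49 and 4.28 in the Sox2 line and 43.7 in GFP replicate 1. KLF4P1 had 0 in both Klf4 libraries. Separately, POU5F1 shares 248 exon bases (8.56%) with TCF19 on the opposite strand.

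Genes known as pluripotency markers or regulators, in a list of 39 outside the 10, were counted in the same way. Of the 24 that could be tested, the Oct4 line had 10 calls (4 up, 6 down), Sox2 had 16 (2 up, 14 down), Klf4 had 4 (3 up, 1 down) and OSK had 13 (2 up, 11 down). The shares of all genes called in either direction were 37.3%, 41.6%, 33.5% and 39.7% in that order. They hold for the fit of all libraries only. The genes tested, those of the list among them, and the share called change when libraries are left out. Without GFP replicate 1 and OSK replicate 1 the same counts were 8 (4 and 4), 13 (2 and 11), 5 (3 and 2) and 7 (2 and 5). The Sox2 count was 9 without Sox2 replicate 2, the Oct4 count 6 without Oct4 replicate 2, and the OSK count 8 without GFP replicate 2 and also 8 without OSK replicate 1. The median log2 changes were -0.45, -0.75, -0.36 and -0.50, beside -0.02, -0.02, -0.02 and -0.01 over all genes. Of the 39, 11 had at most 3 reads in each of the 9 libraries other than GFP replicate 1 and OSK replicate 1, among them DPPA2, DPPA3, DPPA5, ESRRB, FGF4, LEFTY1, NR5A2 and TFCP2L1.

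The decreases took in genes that accompany pluripotency. In the Sox2 line PODXL, a sialomucin that carries stem-cell surface epitopes, fell from 4530, 6598 and 7074 to 1744 and 1755 normalised counts (log2 change -1.77, SE 0.14, limma adjusted p = 5.57e-08). MYCN, a growth regulator of the MYC family, fell by 1.6 on the log2 scale (limma adjusted p = 0.0221), ALPL, the phosphatase used to stain stem-cell colonies, by 1.36 (0.00849), and TRIM71, a let-7 target of early embryos, by 1.35 (0.00118). DNMT3B, a de novo DNA methyltransferase named here after its values were seen, fell in the Oct4 line (-0.39, limma adjusted p = 0.0492), the Sox2 line (-1.10, 1.49e-05) and the OSK line (-0.69, 0.00135). Its Oct4 libraries, at 318 and 275, overlapped those of GFP, at 438, 427 and 310. In the OSK line PODXL fell by 1.80 (limma adjusted p = 5.2e-08), KLF2 by 2.18 (4.5e-05) and CDH1, the epithelial cadherin that reprogramming cells gain, by 1.98 (1.07e-07). CDH1 had 200, 259 and 245 in GFP and 71.6 and 47.3 in OSK. KLF2, a relative of KLF4, and PODXL also fell in the Oct4 line, by 1.38 (limma adjusted p = 0.00284) and 1.2 (5.73e-06). So did ALPL (-1.03, limma adjusted p = 0.0436) and the non-coding ESRG (-0.65). ALPL had 86.4 in GFP replicate 1 and 42.5 and 41.8 in its partners, and MYCN had 32.8 against 20.2 and 14.6. The sizes of the ALPL and MYCN falls thus depend on that library. The only fall in the Klf4 line was that of KLF5 (-0.71, limma adjusted p = 8.53e-07).

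A few of these genes rose. The one large rise was LEFTY2, an inhibitor of Nodal signalling, which had 17.9, 6.07 and 6.80 in GFP and 118 and 121 in the Sox2 line (log2 change 3.57, SE 0.65, limma adjusted p = 3.35e-04). In the OSK line LEFTY2 had at most 3 reads, at least 3.11-fold below GFP, or 1.95-fold without GFP replicate 1. USP44, a deubiquitinase that is high in stem cells, rose in the Oct4 line from 212, 178 and 168 to 502 and 528 (log2 change 1.47, SE 0.13, limma adjusted p = 3.32e-07). CD9, a tetraspanin of the stem-cell surface that many epithelia also carry, rose in the Oct4 (0.77), Klf4 (1.26) and OSK (1.26) lines. JARID2, a Polycomb cofactor, rose in the Oct4 (0.60) and OSK (1.03) lines, TBX3 in the Oct4 line (1.12, limma adjusted p = 0.0412), SOX15 and OTX2 in the Klf4 line (0.84 and 0.30, limma adjusted p = 0.0322 and 0.00182) and CDH1 in the Sox2 line (0.46, limma adjusted p = 0.0360). None of these was absent from GFP.

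**Figure D5:**
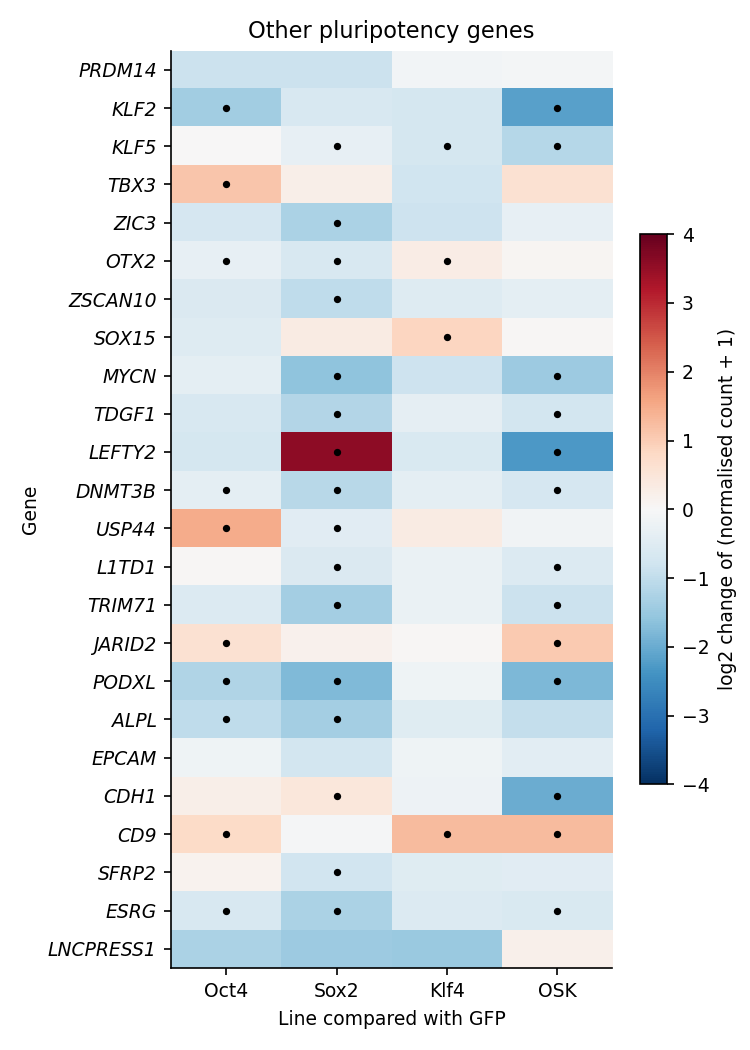
Change from GFP, in log2 of (normalised count + 1), of the 24 tested genes of the list of 39, in each line. Dots mark genes that passed an adjusted p of 0.05. LEFTY2 in the Sox2 line is the deepest red at 3.57, and among dotted genes falls outnumber rises in the Sox2 column (14 against 2) and the OSK column (11 against 2).

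As a check of cell identity, 8 undelivered markers of pluripotent cells were summed (NANOG, LIN28A, UTF1, ZFP42, DPPA4, TDGF1, L1TD1 and DNMT3B). By mean in GFP, DNMT3B (392) and LIN28A (271) were the largest parts of the sum, beside 15.2 for NANOG. The sum ran from 836 to 1143 normalised counts in GFP. The ranges were 770 to 859 for Oct4, 784 to 795 for Klf4, 560 to 738 for OSK and 450 to 559 for Sox2. None of the 8 was at 0 reads in any library. The Sox2, Klf4 and OSK libraries were all below the GFP range, as was 1 of the 2 Oct4 libraries. Sox2 replicate 2, with the lowest sum, was the deepest library.

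Genes of the states that follow pluripotency were mostly at background. In a list of 18 markers of the germ layers, germ cells and trophectoderm, 12 had at most 3 reads in each of the 9 libraries outside GFP replicate 1 and OSK replicate 1, including TBXT, MIXL1, EOMES, SOX17 and DAZL. In GFP replicate 1 all 18 had over 3 reads, and those 12 had a median of 10.4 normalised counts. GATA6, which marks primitive endoderm but is also used in epithelia, fell in all 4 lines (log2 change -1.68, -2.27, -0.58 and -1.41 in the Oct4, Sox2, Klf4 and OSK lines, limma adjusted p = 5.06e-09, 1.14e-10, 5.14e-04 and 3.25e-08). PAX6, an eye-field gene, rose in the Oct4 line (0.23, limma adjusted p = 0.0123) and in the OSK line (0.17, limma adjusted p = 0.0461), the second not without OSK replicate 1 or OSK replicate 2. TFAP2C, a germ cell and trophectoderm factor, was called lower in the Sox2 line, where both libraries had 0 reads. That call rested on GFP replicate 1, whose value of 39.7 compares with 4.05 and 1.94 in its partners.

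Targets of let-7, which LIN28 proteins protect, were examined with them in a list of 12 genes. The Oct4 line had 6 calls among them (5 up, 1 down), Sox2 had 9 (6 up, 3 down), Klf4 had 4 (2 up, 2 down) and OSK had 7 (5 up, 2 down, but in all 4 without OSK replicate 1, 3 without it and GFP replicate 1, and 2 without OSK replicate 2). Over all genes those lines had 37.3%, 41.6%, 33.5% and 39.7% called. HMGA2, a chromatin protein of growing cells, rose in the Oct4 line (1.6, limma adjusted p = 2.29e-06), the Sox2 line (0.87, 7.12e-04) and the OSK line (0.77, 0.00214). IGF2BP3 rose in the Oct4 (0.95) and Sox2 (1.18) lines. MYC fell in the Oct4 (-0.49), Sox2 (-1.25) and OSK (-0.23) lines. In the Sox2 line, where LIN28A fell, the list's median log2 change was 0.26 beside -0.02 over all genes. Further rises were those of IGF2BP2 in the Sox2 line (0.93), HMGA1 in the Oct4 (0.35) and Sox2 (0.92) lines, LRIG2 in the Oct4 (0.98), Klf4 (0.34) and OSK (0.27) lines, CDC25A in the Klf4 (0.63) and OSK (0.71) lines and ARID3B in the OSK line (0.43). Further falls were those of CCND2 in the Sox2 (-1.88), Klf4 (-0.71) and OSK (-1.73) lines, IGF2BP1 in the Sox2 line (-0.95) and NRAS in the Klf4 line (-0.26).

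By Pearson r of log2(normalised count + 1) over the 11 libraries, among 13924 genes with a unique symbol and a mean of at least 1 CPM, the genes most like each member were as follows, as a description over libraries that share lines and depth. POU5F1 was most like its copies POU5F1P3 (0.990) and POU5F1P4 (0.987), then CDH11 (0.981). SOX2 was most like TMX1 (0.994) and KLF4 like UNC5B-AS1 (0.990). Among undelivered members, NANOG was most like IQCA1 (0.925), LIN28A like TMEM38A (0.956), DPPA4 like CLDN6 (0.935), SALL4 like AEBP1 (0.904) and LIN28B like KLRD1 (0.866). ZFP42 was most like DPPA4 (0.936). Members with a mean under 1 CPM, ZFP42 among them, could not be returned as a nearest gene. The r of DPPA4 with ZFP42 (0.936) was above that with CLDN6 (0.935).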

How the data were processed

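The deposited table holds a signal, normalised counts, for 60605 features in 11 libraries: from the values, the authors divided the read counts of each library by a single factor and deposited 2 decimals. Per the submitters' processing notes, STAR 2.7.1a and featureCounts 1.6.2 were among the tools. GRCh38 and GRCm38 are both named there, with no role. The annotation, strand setting and normalisation tool are not given in the sources used here. Per the labels' protocols, RNA was isolated with TRIzol, selected by oligo(dT) and prepared with an NEBNext Ultra II kit.

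Every nonzero value up to 200 was a whole multiple of the value of 1 read within 0.0061, so whole reads were recovered (100% of such values in each library). The main test was limma 3.58.1 (R 4.3.3, trend) on log2(value + 1), which understates changes of low genes. The filter asked for 10 or more normalised counts in 2 or more libraries. The 18828 genes that met it entered 1 fit with a mean per group over all 11 libraries (6 residual and 9.21 prior degrees of freedom). Benjamini-Hochberg adjusted p-values over all genes tested were called under 0.05. NANOG and ZFP42 passed the filter through GFP libraries as well as others. Alternatives were edgeR 4.0.16 and DESeq2 1.42.0 on recovered reads, another scaling, pseudocounts of 0.5 and 4, other filters, only the compared groups, a replicate block and leaving out libraries. A fold against a group at or under 3 reads per library is a lower bound at 3 reads. The procedure was tested on simulated data.

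The members, the gene lists and the tests were chosen with earlier results of these data known. Named list genes are the up to 4 largest rises and 4 largest falls per comparison with GFP that passed and whose libraries did not overlap; any other is said to be chosen after its values were seen. Promoter sequences are from RefSeq.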

Additional observations from a re-analysis of the deposited data

How the results depend on the processing

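Of the members' log2 changes under the alternatives, 1320 kept their direction and their side of the threshold, 15 newly passed it, 15 no longer passed it and 22 changed sign, all 22 in changes that were not called. LIN28B in the Oct4 line, 0.01 as reported, was -0.0047 with edgeR TMM, -0.00808 with edgeR median-of-ratios factors and -0.011 with DESeq2. SALL4 in the Klf4 line was 0.088 without GFP replicate 1 and OSK replicate 1. When single libraries were left out, the changes from GFP ran from -0.18 to 0.15 for LIN28B and -0.39 to 0.10 for DPPA4 in the Oct4 line, -0.60 to 0.10 for POU5F1 in the Sox2 line, -0.55 to 0.088 for SALL4 with Klf4 and -0.44 to 0.66 for LIN28B in the OSK line, which was 0.74 without GFP replicate 1 and OSK replicate 1. The changes between the OSK and Oct4 lines ran from -0.45 to 0.65 for LIN28B, -0.48 to 0.18 for SALL4 and -0.54 to 0.14 for ZFP42. Those between the OSK and Sox2 lines ran from -0.38 to 0.13 for SALL4 and -0.21 to 1.28 for ZFP42, and those between the OSK and Klf4 lines from -0.14 to 0.50 for NANOG and -1.16 to 0.021 for LIN28B.

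Counts of called members ran from 2 to 6 in the Sox2 line and from 3 to 5 between the OSK and Sox2 lines with single libraries left out, and the second was 5 without GFP replicate 1 and OSK replicate 1. All genes called between the OSK and Klf4 lines ran from 2539 to 4918. For the list of 39, under alternatives added after the data were seen, the Oct4 count was 6 with no filter and 6 to 10 with single libraries left out. The Sox2 count was 9 to 16 with single libraries left out. The OSK count was 8 with DESeq2, 7 without GFP replicate 1 and OSK replicate 1, and 8 to 14 with single libraries left out. With a limit of 10 reads, silent members numbered 1 for GFP, 3 each for Oct4, Sox2 and Klf4, and 2 for OSK. They numbered 0 in the Oct4, Sox2 and OSK lines when set by the olfactory receptor percentile. Leaving out 1 library gave 1 to 3 in the Sox2 line and 0 to 1 in the Klf4 line. The cause of these differences was not tested. The number of all genes called also changed when libraries were left out. The counts of called genes under those fits therefore cannot be set against the shares of the full fit. At this depth, genes such as NANOG, ZFP42 and UTF1 rest on at most 17 reads in any library.

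The groups share replicate numbers, but the labels do not say that a number marks a shared culture or day. Over 20 pairs of same-numbered libraries the correlation of deviations from the group means ran from -0.07 to 0.44 (median -0.02). The 2 pairs over 0.1 were GFP with OSK in replicate 1 (0.44) and in replicate 2 (0.31). In groups of 2 the deviations mirror each other, so the pairs are not separate checks. Whether the numbers mark a shared culture or day could not be decided from these values. With the replicate block, LIN28B was -0.18 in the Oct4 line and -0.073 in the OSK line. Members called were 3, 4, 2 and 5 in the Oct4, Sox2, Klf4 and OSK lines with the block, against 3, 4, 3 and 4 without it. Of all 18828 genes tested, 6072, 7051, 5322 and 6469 were called with the block, against 7018, 7824, 6315 and 7471 without it. With the block, POU5F1 was lost in the Klf4 line (limma adjusted p = 0.10). DPPA4 was gained as lower in the OSK line (limma adjusted p = 0.041).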
